A study of Mus musculus with 16 samples.

Results

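The autophagy and lysosome machinery examined here was a list of 55 genes, and all 55 were found among the 55357 genes of the mouse liver count table by their Ensembl identifiers. The list names genes by their role, and its rule used no measured value, but it was chosen with earlier results of these data known. All 55 genes passed the filter on low counts that left 14421 genes to be tested, and the smallest count of any of them in any library was 18. They were sorted by the step at which their proteins act: 5 in initiation, 7 in nucleation, 5 in membrane growth, 10 in conjugation, 5 ATG8 proteins, 9 receptors, 3 in fusion, 3 transcription factors of the MiT/TFE family and 8 of the lysosome itself.

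The 16 liver libraries fell into 4 groups of 4. In the AUG group the gene of the telomerase RNA, Terc, had the genotype given as CUG/AUG, and in the del7 group it lacked 7 nucleotides, at positions 29 to 35. AUG_WT and del7_WT are the wild-type livers of the respective lines, and the mice of all 4 groups were untreated and fed ad libitum. The labels do not say whether CUG/AUG names an exchanged codon or a pair of alleles, and they give no age, sex or strain for these groups. They also do not say that the libraries of a group came from separate animals. The p-values set differences between groups against the spread within groups of these 16 samples. Part of that spread may be technical, so the p-values may not extend to other animals. Terc itself is not analysed here.

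Autophagy is the route by which a cell wraps part of its own cytoplasm in a double membrane, the autophagosome, and delivers it to the lysosome for digestion. A kinase complex around ULK1 starts it, a lipid kinase complex around Beclin 1 marks the site, and a conjugation system then fixes ATG8 proteins such as LC3B on the growing membrane, where receptors such as p62 bring in cargo. In liver this pathway supplies amino acids and lipids during fasting and removes damaged mitochondria. The transcription factor TFEB and its relatives activate many of the genes. The lines are named for TERP, a protein that the telomerase RNA transcript is known to encode and that has been linked to autophagy in cultured cells. Levels of mRNA, which were measured here, do not show how much material passes through the pathway, since most of its steps are set by phosphorylation, lipidation and degradation of proteins.

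Libraries held between 7714058 and 14629022 counts in genes. Levels are given as CPM, the counts per 1000000 counts of the scaled library size, in the order of replicates 1 to 4, and fold changes as log2 values from a model of all libraries. Hepatocyte markers summed to between 106520 and 164645 CPM in 15 of the libraries and to 47928 CPM in AUG_WT replicate 1. That library also had 1263 CPM of B and plasma cell markers against 44.7 to 359 in the other 15, 69.4 CPM of T and NK cell markers against 2.68 to 14.3, 376 CPM of genes of dividing cells against 7.02 to 24.8, and 1460 CPM of Kupffer cell and macrophage markers against 315 to 996. Cholangiocyte markers were at 130 CPM there against 20.2 to 75.7, and neutrophil markers at 28.6 CPM against 2.60 to 14.9. Endothelial markers were lower there, at 249 CPM against 336 to 429. The sums of stellate cell and of erythroid markers lay within the range of the other 15. No marker of these lists was at 0 in all libraries. In bulk tissue, fewer cells of a type and less RNA per cell cannot be told apart. The comparisons that use AUG_WT were therefore run with and without AUG_WT replicate 1.

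AUG_WT replicate 1 stood apart in the autophagy genes too. It was the lowest of the 16 libraries for 34 of the 55 genes (61.8%), where it was lowest for 25.8% of all tested genes. It was the highest for 8, namely Uvrag, Rubcn, Atg4a, Fundc1, Tfeb, Tfe3, Mitf and Ctsd, a share of 14.5% against 28.9% of all tested genes. Averaged over the members of a step and set against the mean of the other 15 libraries, its log2 CPM was -0.76 for the ATG8 proteins, -0.68 for initiation, -0.50 for receptors and -0.47 for fusion. The same measure was 0.35 for nucleation and 0.86 for the MiT/TFE factors. Over all 55 genes it was -0.29, where the other 15 libraries lay between -0.09 and 0.11. The part that its different cell markers play in these values was not tested.

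**Figure D1:**
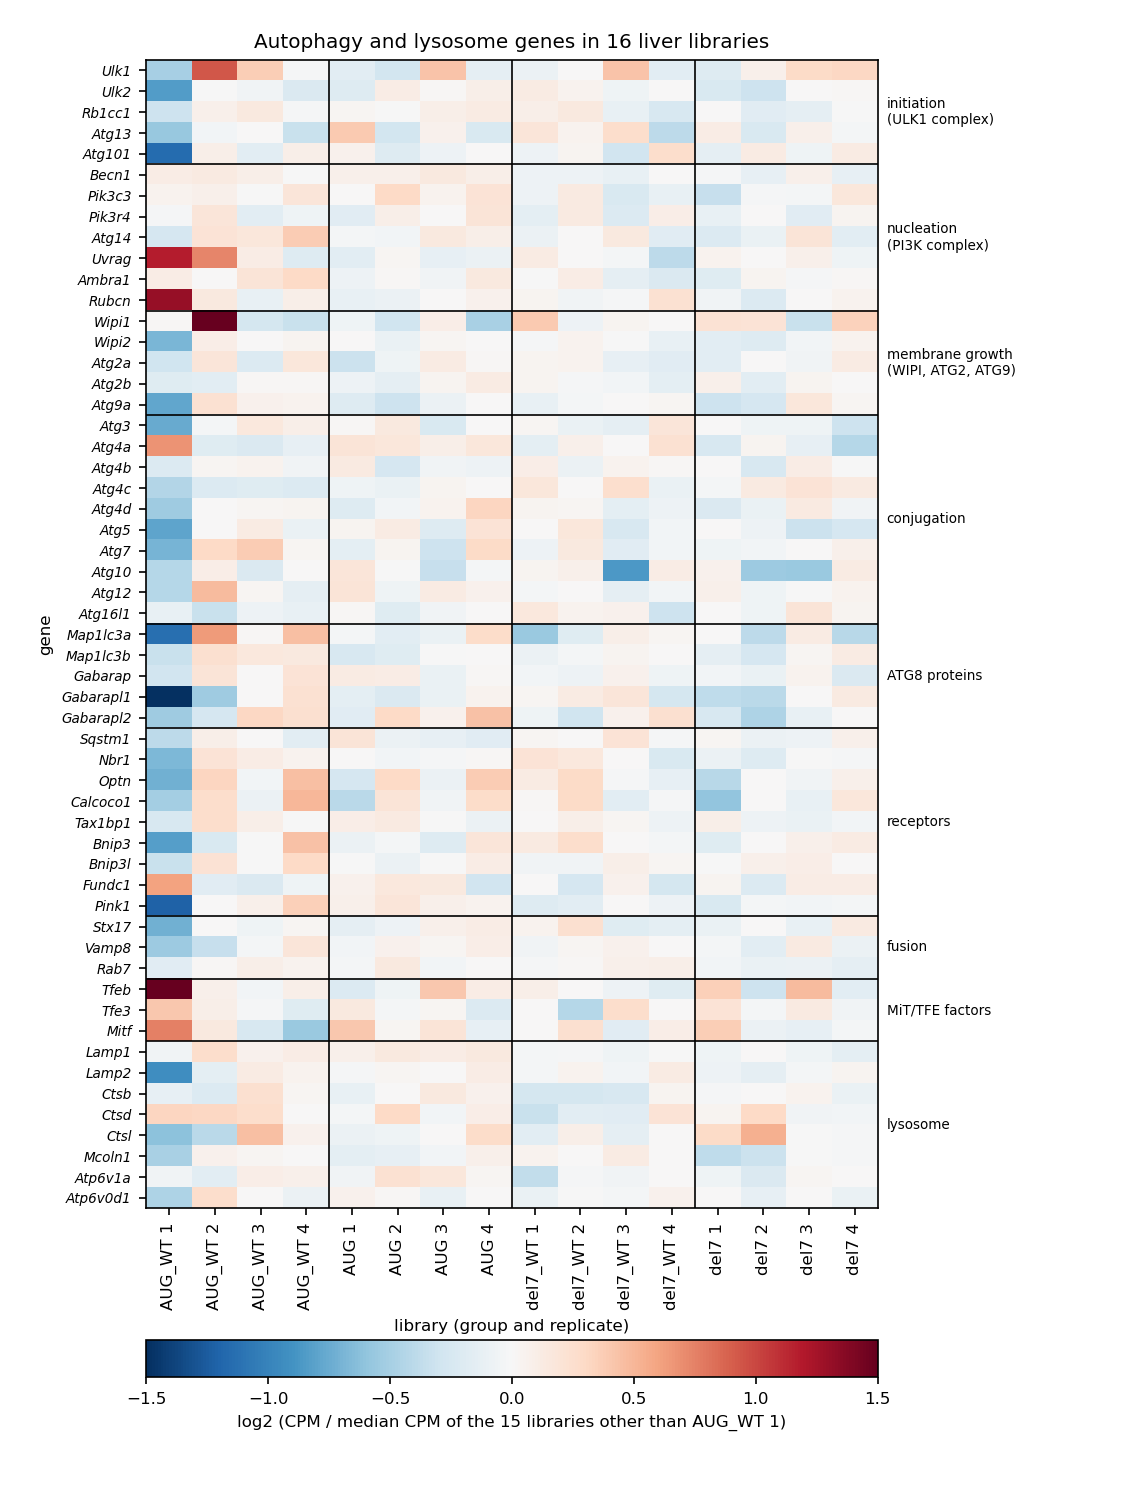
CPM of each of the 55 genes (rows, grouped by step) in each library (columns, grouped by genotype), as log2 of the ratio to the median of the 15 libraries other than AUG_WT replicate 1, with colours limited at 1.5 in either direction. The column of AUG_WT replicate 1 is blue for most genes, being the lowest of 16 for 34 of them, and dark red for Uvrag, Rubcn and Tfeb, while Wipi1 is dark red in AUG_WT replicate 2 alone.

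AUG_WT replicate 2 was the highest of the 16 libraries for 11 of the 55 genes (20% against 10.4% of all tested genes). AUG_WT replicate 4 was the highest for 10 (18.2% against 7.04%), and each of these libraries was the lowest for 1. Within every group, the median spread of the 55 genes was below that of all tested genes. The median SD of log2 CPM between the libraries of a group was 0.12 in AUG, 0.13 in del7 and 0.14 in del7_WT, where the medians over all tested genes were 0.23, 0.22 and 0.20. In AUG_WT it was 0.32, and 0.14 without replicate 1, where all tested genes had 0.39 and 0.22. All tested genes were not matched to the 55 by level, so level may account for part of the gap, which was not tested. The most variable member within a group was Ulk1 in AUG (SD 0.32), Wipi1 in AUG_WT (0.91), Tfeb in del7 (0.38) and Atg10 in del7_WT (0.44). Between genes, levels spanned a wide range per kilobase of exon. Lamp1 was highest, with 156 ± 11.7 CPM per kb (mean and SD over 16 libraries), followed by Gabarapl1 with 122 ± 28.5, Ctsb with 102 ± 10.5, Sqstm1 with 96.7 ± 9.63 and Ctsl with 72.2 ± 14.2. Mitf was lowest with 1.13 ± 0.251 CPM per kb, next to Tfeb with 1.81 ± 0.744. Lengths are those of all annotated exons of a gene merged, so a gene with many long isoforms reads lower on this scale. The ranges of 1 SD around the mean overlapped for Lamp1 and Gabarapl1, for Gabarapl1 and Ctsb, for Ctsb and Sqstm1, and for Mitf and Tfeb, and did not overlap for Sqstm1 and Ctsl.

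None of the 55 genes passed an adjusted p of 0.05 in edgeR's quasi-likelihood test of AUG against AUG_WT. The share among all tested genes was 0.0277%, or 4 genes of 14421. With all libraries 3 genes had an unadjusted p under 0.05, Uvrag and Rubcn with lower and Atg4c with higher values in AUG, or 5.45% of the list against 8.81% of all genes. Of all genes 7.37% met this with lower and 1.44% with higher values. DESeq2 and limma voom also called 0, with 3 and 2 genes at an unadjusted p under 0.05. For these tools, here and below, the share of all genes at that p is not given, so their counts lack a reference. The median log2 fold change of the list was 0.04 (all genes -0.04), and 36 of 55 values were above 0, or 65.5% against 43.8% of all genes. Without AUG_WT replicate 1 again 0 of 55 were called (0.0274% of genes), the median was -0.02 (all genes 0.01) and only 23 of 55 values were above 0, or 41.8% against 52.5%. The tilt of the list towards higher values in AUG was thus present with that library and not without it. At an unadjusted p under 0.05 the fit without it held 4 other genes, Ulk1, Wipi1 and Map1lc3b with lower and Atg4a with higher values in AUG, where all genes gave 5.92% (3.34% lower and 2.58% higher).

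In del7 against del7_WT, 0 of 55 genes passed the same test, and 0% of all genes did. Here 0 genes had an unadjusted p under 0.05, where 1.92% of all genes did, and DESeq2 and limma voom likewise gave 0. The median was -0.03 (all genes 0.00), and 22 of 55 values were above 0, where 50.1% of all genes were. The del7 comparison uses AUG_WT replicate 1 only through the shared estimate of spread. Without it 0 genes were called (0%) and 1 had an unadjusted p under 0.05, Mcoln1, where 5.34% of all genes did.

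The intervals show what size of change these libraries leave room for. In AUG against AUG_WT, the 95% interval of the fold change lay within 2-fold in either direction for 51 of 55 genes, the exceptions being Uvrag, Rubcn, Wipi1 and Tfeb, and within 1.5-fold for 43. Among all tested genes 71.8% and 42.3% had intervals that narrow. Without AUG_WT replicate 1, 54 genes lay within 2-fold, all but Wipi1, and 48 within 1.5-fold (76.8% and 51.1% of all genes). In del7 all 55 lay within 2-fold (75.7% of all genes) and 43 within 1.5-fold (47.7%). AUG_WT replicate 1 enters these del7 intervals through the shared estimate of spread. With it left out, 55 lay within 2-fold in del7 (80.8%) and 52 within 1.5-fold (56.6%). For the genes so bounded, a change larger than the bound lies outside the interval.

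**Figure D2:**
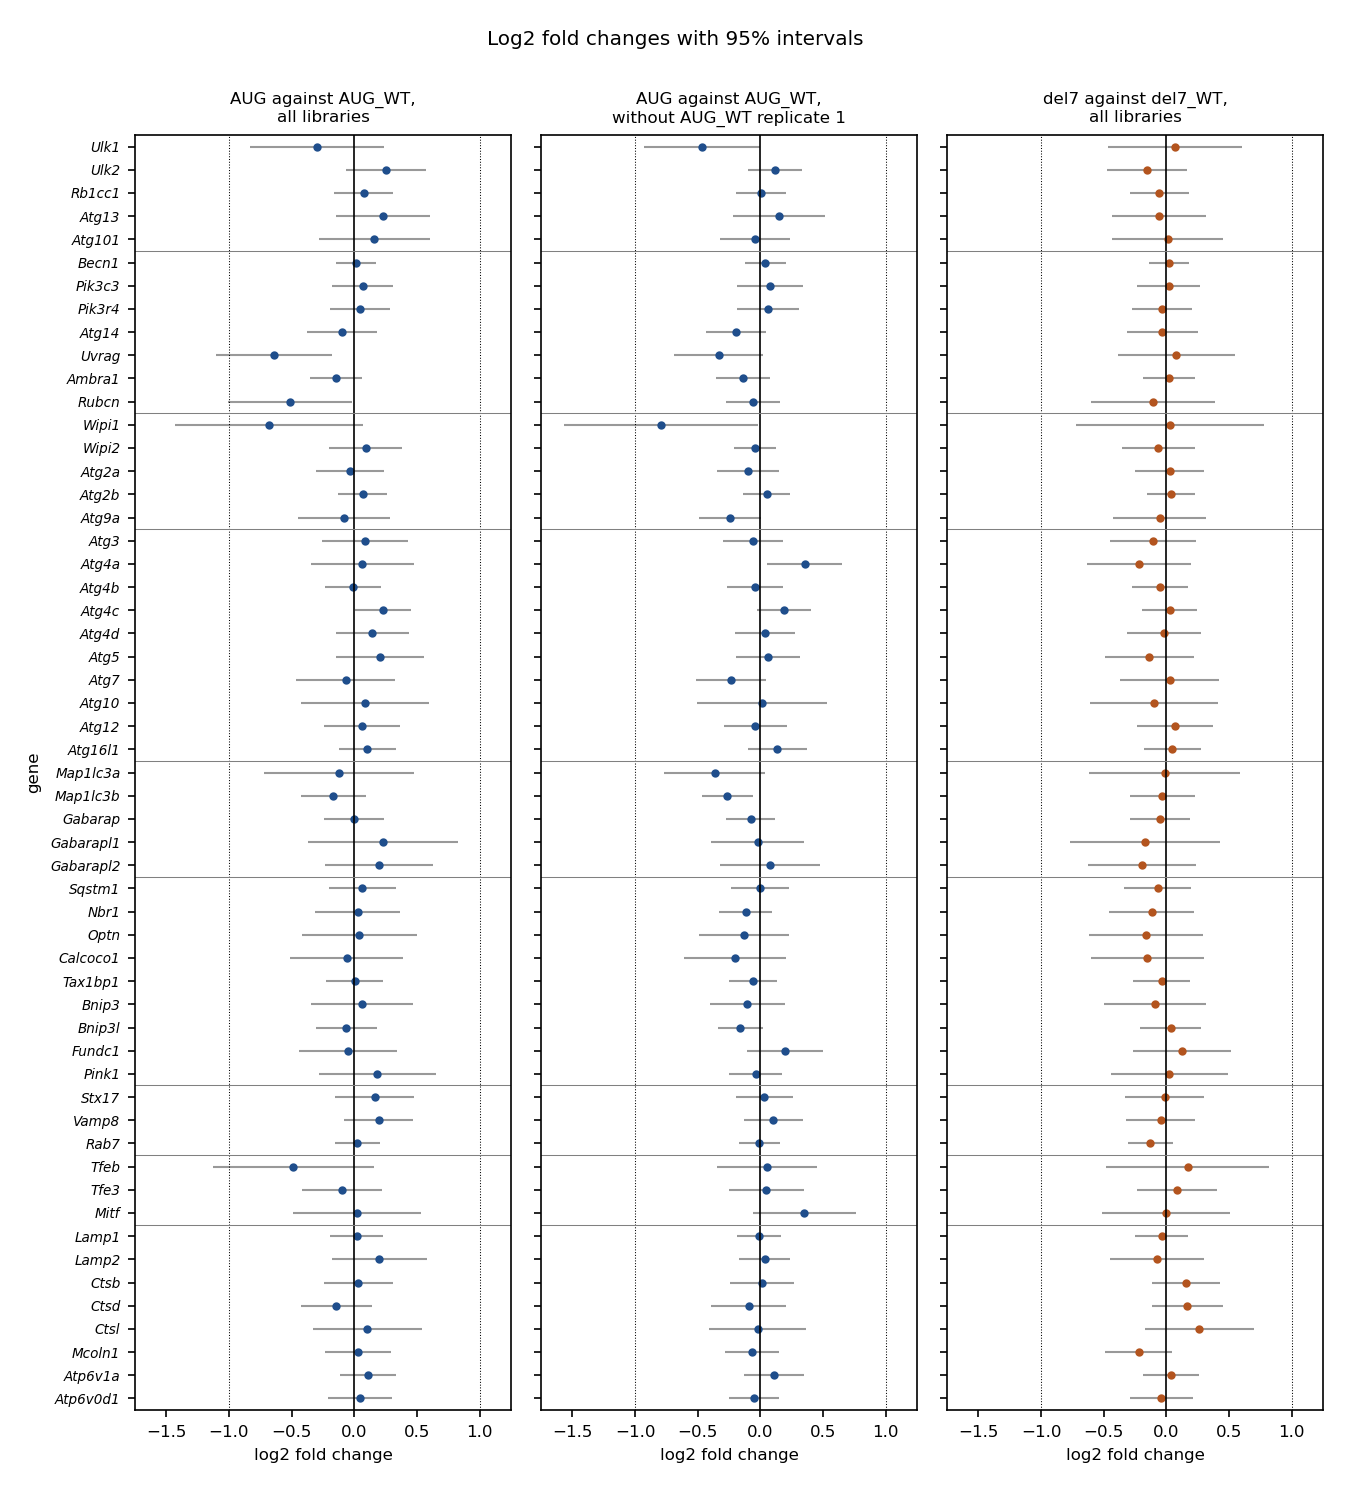
Log2 fold change (x axis) of each gene (y axis, grouped by step) with its 95% interval, in AUG against AUG_WT with all libraries, in the same comparison without AUG_WT replicate 1, and in del7 against del7_WT; dotted lines mark 2-fold. Most intervals include 0. In the left panel those of Uvrag, Rubcn, Wipi1 and Tfeb reach beyond 2-fold, and in the middle panel only that of Wipi1 does.

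Initiation rests on a complex of the kinase ULK1 or ULK2 with the scaffold RB1CC1 (FIP200), ATG13 and ATG101. Ulk1 (ENSMUSG00000029512.12) had the highest level per kb of the 5, and its libraries were at 59.6, 160.3, 108 and 82.7 CPM in AUG_WT and at 75.0, 69.5, 113 and 76.2 CPM in AUG. Ulk1 was at 79.2, 84.0, 113 and 75.3 CPM in del7_WT and in del7 at 73.2, 88.3, 103 and 104 CPM. One AUG_WT library, replicate 2, was higher than all the others, and the groups overlapped in both lines. Its log2 fold change in AUG was -0.30 (SE 0.25, 95% interval -0.83 to 0.24); without AUG_WT replicate 1 it was -0.47 (SE 0.22, unadjusted p = 0.0477, adjusted p = 0.834), and without AUG_WT replicate 2 it was 0.01. In del7 it was 0.07 (SE 0.25, 95% interval -0.47 to 0.60).

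Ulk2 (ENSMUSG00000004798.15), the related kinase, was at 49.2, 87.6, 84.9 and 75.7 CPM in AUG_WT and at 76.9, 95, 89.2 and 93.4 CPM in AUG. The first AUG_WT value was the lowest of all 16, and the highest AUG_WT values lay among those of AUG. Its del7_WT libraries were at 95.5, 90.9, 84.2 and 88.0 CPM and its del7 libraries at 75.0, 70.6, 87.8 and 89.0 CPM, again overlapping. The fold change was the highest of the 55 in AUG, 0.25 (SE 0.15, 95% interval -0.07 to 0.57), and 0.12 without AUG_WT replicate 1, against -0.15 (SE 0.15, 95% interval -0.47 to 0.17) in del7. Rb1cc1, Atg13 and Atg101 had AUG values of 0.07, 0.23 and 0.16, which became 0.01, 0.15 and -0.04 without that library, and del7 values between -0.06 and 0.01. Atg101 was the member of the complex furthest below the rest in AUG_WT replicate 1, at 8.98 CPM against 16.5 to 24.1 elsewhere.

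Nucleation depends on the lipid kinase PIK3C3 (VPS34) with its partners PIK3R4 and Beclin 1, which are steered to autophagy by ATG14 and AMBRA1, to endosomes by UVRAG, and held back by Rubicon, the product of Rubcn. The core of the complex differed little between libraries. Becn1 lay between 41.8 and 50.6 CPM over all 16 libraries, with log2 fold changes of 0.01 (SE 0.07, 95% interval -0.15 to 0.17) in AUG, 0.04 without AUG_WT replicate 1 and 0.02 (SE 0.08, 95% interval -0.14 to 0.18) in del7. Pik3c3 lay between 19.5 and 30.3 CPM and Pik3r4 between 29.7 and 39.4 CPM, and their fold changes in both lines were between -0.04 and 0.07, with 0.07 and 0.06 in AUG when that library was left out. Becn1 shares an exon stretch with the overlapping gene Cntd1.

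The regulators spread more. Uvrag (ENSMUSG00000035354.10) was at 83.3, 61.1, 39.9 and 32.2 CPM in AUG_WT and at 32.9, 37.6, 33.8 and 34.6 CPM in AUG. Its del7_WT libraries were at 40.2, 36.8, 36.0 and 28.0 CPM and its del7 libraries at 38.2, 37.0, 38.7 and 35.1 CPM. The first 3 AUG_WT libraries were above every AUG library, the fourth was below all of them, and in del7 the groups overlapped. Uvrag had the smallest unadjusted p of the list in AUG, with a log2 fold change of -0.64 (SE 0.22, unadjusted p = 0.0101, adjusted p = 0.561). It was -0.33 (SE 0.17, unadjusted p = 0.0629, adjusted p = 0.834) without AUG_WT replicate 1 and 0.08 (SE 0.22, 95% interval -0.39 to 0.55) in del7. The difference between the AUG and del7 effects was -0.72 (SE 0.31, unadjusted p = 0.0336, adjusted p = 0.864) and did not pass, and without AUG_WT replicate 1 it was -0.40 (unadjusted p = 0.0942). The transcripts of Uvrag hold stretches of up to 101 bases that also stand in other annotated RNAs, so its counts may include or lose some reads.

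Rubcn (ENSMUSG00000035629.20) was at 71.2, 31.9, 26.7 and 30.6 CPM in AUG_WT and at 26.6, 27.0, 28.8 and 30.2 CPM in AUG. A single library, AUG_WT replicate 1, was far above the rest, and the other 3 overlapped those of AUG. The log2 fold change was -0.51 (SE 0.23, unadjusted p = 0.0436, adjusted p = 0.561) with it and -0.06 (SE 0.10, 95% interval -0.27 to 0.15) without it. In del7_WT Rubcn was at 29.8, 27.9, 28.4 and 33.9 CPM and in del7 at 27.8, 24.9, 29.0 and 29.9 CPM, a log2 fold change of -0.11 (SE 0.23, 95% interval -0.60 to 0.39).

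Ambra1 (ENSMUSG00000040506.17), the nucleation gene with the highest level per kb, was at 53.3, 49.2, 56.4 and 60.7 CPM in AUG_WT, 46.8, 49.8, 47.5 and 54.5 CPM in AUG, 49.2, 53.1, 44.9 and 42.4 CPM in del7_WT and 43.5, 50.5, 48.5 and 49.8 CPM in del7. Its groups overlapped in both lines, and its fold changes were -0.15 (SE 0.10, 95% interval -0.35 to 0.06) in AUG, -0.14 without AUG_WT replicate 1 and 0.02 (SE 0.10, 95% interval -0.19 to 0.23) in del7. For Atg14, without AUG_WT replicate 1, the 3 AUG_WT libraries (27.7, 26.9 and 31.1 CPM) were all above the AUG libraries (23.6, 23.3, 26.5 and 25.4 CPM) and the del7_WT libraries (22.6, 24.0, 26.5 and 21.3 CPM). Its log2 fold change in AUG was then -0.19 (SE 0.11, 95% interval -0.43 to 0.04), and -0.10 (SE 0.13, 95% interval -0.38 to 0.18) with all libraries.

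Growth of the membrane needs WIPI proteins, which read the lipid made by PIK3C3, the lipid carriers ATG2A and ATG2B, and the scramblase ATG9A. Wipi1 (ENSMUSG00000041895.16) was at 13.5, 41.2, 11.1 and 10.6 CPM in AUG_WT and at 12.8, 10.9, 14.4 and 9.58 CPM in AUG. Replicate 2 of AUG_WT alone was high, and the other 3 lay within the range of AUG. The log2 fold change, the lowest of the 55 in AUG, was -0.68 (SE 0.35, 95% interval -1.43 to 0.07), it was -0.79 (SE 0.36, unadjusted p = 0.0446, adjusted p = 0.834) without AUG_WT replicate 1, and it was 0.03 without AUG_WT replicate 2. In del7_WT it was at 17.6, 12.7, 13.8 and 13.4 CPM and in del7 at 15.6, 15.5, 10.7 and 17.0 CPM, with a fold change of 0.03 (SE 0.35, 95% interval -0.72 to 0.78).

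Atg2a (ENSMUSG00000024773.16), with the highest level per kb of this step, was at 53.4, 74.5, 57.1 and 74.1 CPM in AUG_WT, 52.5, 62.8, 71.8 and 66.2 CPM in AUG, 67.7, 68.3, 60.1 and 58.4 CPM in del7_WT and 58.8, 65.7, 63.4 and 71.4 CPM in del7. The groups overlapped throughout, with fold changes of -0.03 (SE 0.13, 95% interval -0.30 to 0.24) in AUG, -0.10 without AUG_WT replicate 1 and 0.03 (SE 0.13, 95% interval -0.25 to 0.30) in del7. Wipi2 and Atg2b had fold changes between -0.06 and 0.09 in the 2 lines, with -0.04 and 0.05 in AUG when that library was left out. Atg9a was at 21.0 CPM in AUG_WT replicate 1 and at 42.5, 37.7 and 37.5 CPM in the other AUG_WT libraries, against 31.6, 29.0, 34.0 and 36.2 CPM in AUG. Without replicate 1 its groups did not overlap, and the log2 fold change was -0.24 (SE 0.12, 95% interval -0.49 to 0.00), where it was -0.08 (SE 0.17, 95% interval -0.45 to 0.29) with all libraries.

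Conjugation attaches ATG8 proteins to lipid: ATG4 proteases trim them, ATG7 and ATG3 pass them on, and the ATG12, ATG5 and ATG16L1 complex, joined with the help of ATG10, sets them on the membrane. The 1 gene of the list whose AUG and AUG_WT libraries did not overlap belongs to this step. Atg4c (ENSMUSG00000028550.16), one of the 4 proteases, was at 12.6, 14.8, 15 and 14.8 CPM in AUG_WT and at 16.3, 16.0, 17.6 and 17.1 CPM in AUG. All 4 AUG libraries were above all 4 AUG_WT libraries, as was the case for 2.05% of all tested genes in either direction (0.853% higher). The log2 fold change was 0.23 (SE 0.10, unadjusted p = 0.0454, adjusted p = 0.561) with all libraries and 0.19 (SE 0.10, unadjusted p = 0.0772, adjusted p = 0.834) without AUG_WT replicate 1, so it did not pass. In del7_WT it was at 19.2, 17.1, 20.4 and 15.9 CPM and in del7 at 16.7, 18.7, 19.7 and 18.8 CPM. Both groups of the del7 line overlapped each other and AUG, and the fold change there was 0.03 (SE 0.10, 95% interval -0.20 to 0.25). The AUG_WT libraries were the low ones of the 4 groups: against del7_WT their log2 difference was -0.34 (SE 0.10, unadjusted p = 0.00497, adjusted p = 0.287), and -0.31 without AUG_WT replicate 1. The difference between the AUG and del7 effects was 0.20 (SE 0.15, 95% interval -0.11 to 0.52), and 0.17 without AUG_WT replicate 1.

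Atg4a (ENSMUSG00000079418.6), a protease with a near-identical copy elsewhere in the genome, was at 10.2, 5.59, 5.46 and 5.83 CPM in AUG_WT and at 7.29, 7.15, 6.75 and 7.18 CPM in AUG. Replicate 1 of AUG_WT was the highest of all 16 libraries and the other 3 were below every AUG library. The log2 fold change was 0.06 (SE 0.19, 95% interval -0.35 to 0.48) with it and 0.35 (SE 0.14, unadjusted p = 0.0253, adjusted p = 0.794) without it. It was at 5.74, 6.69, 6.36 and 7.42 CPM in del7_WT and at 5.37, 6.54, 5.86 and 4.73 CPM in del7, where the groups overlapped and the fold change was -0.22 (SE 0.20, 95% interval -0.63 to 0.20). The copy, Atg4a-ps, shares 2115 bases with 15 mismatches, so the level of Atg4a is uncertain. The difference between the AUG and del7 effects was 0.28 (SE 0.28, unadjusted p = 0.324, adjusted p = 0.891) with all libraries and 0.58 (SE 0.19, unadjusted p = 0.00928, adjusted p = 1) without AUG_WT replicate 1.

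When AUG_WT replicate 1 was left out, the libraries of AUG and AUG_WT did not overlap for 6 of the 55 genes, or 10.9%, where 5.47% of all tested genes met that measure with 3 libraries in AUG_WT. Atg4a and Atg4c were higher in every AUG library (2.34% of all genes), and Atg14, Atg9a, Map1lc3b and Nbr1 were lower (3.13%). Markers of erythroid cells separated the same libraries: they summed to 609 to 2964 CPM in AUG_WT replicates 2 to 4 and to 138 to 529.5 CPM in AUG, with 0 of 6 values above 0 and a median of -2.34. Markers of Kupffer cells and macrophages had 12 of 12 values above 0 in this fit, with a median of 0.38. Neutrophil markers had 3 of 3 (median 1.23), T and NK cell markers 4 of 5 (0.67) and genes of dividing cells 3 of 4 (0.45). Cholangiocyte markers had 2 of 5 above 0, with a median of -0.67. Apart from the erythroid markers, the sums of these lists overlapped. The part of any of them in the values of the 6 genes was not tested.

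Atg3 (ENSMUSG00000022663.4), the conjugating enzyme with the highest level per kb of the step, was at 38.8, 63.9, 72.7 and 69.3 CPM in AUG_WT and 66.4, 72.3, 55.8 and 65.4 CPM in AUG. It was at 67.0, 61.1, 59.6 and 74.0 CPM in del7_WT and 65.8, 62.7, 62.6 and 52.5 CPM in del7. AUG_WT replicate 1 was the lowest library, and the groups otherwise overlapped. Its fold changes were 0.09 (SE 0.16, 95% interval -0.26 to 0.43) in AUG, -0.06 without that library and -0.10 (SE 0.16, 95% interval -0.45 to 0.24) in del7. The other 7 conjugation genes, Atg4b, Atg4d, Atg5, Atg7, Atg10, Atg12 and Atg16l1, had AUG values between -0.07 (Atg7) and 0.20 (Atg5), and del7 values between -0.13 (Atg5) and 0.07 (Atg12). With that library left out, the AUG values ran from -0.23 (Atg7) to 0.14 (Atg16l1), and none of the 7 had an unadjusted p under 0.05 in either line. Atg10 had the lowest counts of the list, between 2.34 and 4.80 CPM, and an interval in AUG from -0.43 to 0.59.

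ATG8 proteins, of the LC3 and GABARAP branches, coat the autophagosome and hold cargo receptors. Map1lc3b (ENSMUSG00000031812.17), which encodes LC3B, the usual marker of autophagosomes, was at 47.2, 70.4, 66.3 and 66.1 CPM in AUG_WT and at 50.5, 52.6, 59.5 and 59.9 CPM in AUG. Replicate 1 of AUG_WT was the lowest library of all, and the other 3 were above every AUG library. Its log2 fold change was -0.17 (SE 0.12, 95% interval -0.43 to 0.09) with all libraries and -0.26 (SE 0.09, unadjusted p = 0.0136, adjusted p = 0.791) without that one. In del7_WT it was at 56.1, 58.1, 61.0 and 59.5 CPM and in del7 at 54.1, 50.0, 60.5 and 64.8 CPM, overlapping, with a fold change of -0.03 (SE 0.12, 95% interval -0.29 to 0.23). Stretches of Map1lc3b also stand in 6 other annotated genes, pseudogenes among them, which makes its counts less certain.

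Gabarapl1 (ENSMUSG00000030161.9) had the highest level per kb of the family, at 85.7, 187, 271 and 315 CPM in AUG_WT and 243, 231, 252 and 279 CPM in AUG. AUG_WT replicate 1 was at 0.32 times the median of the other 15 libraries, and the remaining groups overlapped. The del7_WT libraries were at 276, 294, 304 and 225 CPM and the del7 libraries at 206, 204, 269 and 295 CPM. The fold changes were 0.23 (SE 0.28, 95% interval -0.37 to 0.82) in AUG, -0.02 (SE 0.17, 95% interval -0.39 to 0.35) without replicate 1 and -0.17 (SE 0.28, 95% interval -0.77 to 0.42) in del7. Map1lc3a was likewise low in AUG_WT replicate 1 (7.30 CPM against 10.9 to 24.9), and its AUG value was -0.12 (SE 0.28, 95% interval -0.72 to 0.47) with that library and -0.37 (SE 0.19, 95% interval -0.77 to 0.04) without it. Gabarap and Gabarapl2 had AUG values of -0.00 and 0.20 with all libraries and of -0.08 and 0.08 without it. In del7 all 5 genes of the family had values between -0.19 and -0.01, with every interval including 0.

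Cargo receptors tie the load to ATG8 proteins: p62 (Sqstm1), NBR1, optineurin, CALCOCO1 and TAX1BP1 take up ubiquitinated or tagged material, while BNIP3, BNIP3L, FUNDC1 and the kinase PINK1 serve the removal of mitochondria. Sqstm1 (ENSMUSG00000015837.16) had the highest level per kb of the 9 and was at 251, 351, 330.4 and 296 CPM in AUG_WT and 377, 311, 304 and 293 CPM in AUG. Its del7_WT libraries were at 336, 329.6, 381 and 324 CPM and its del7 libraries at 335, 310.4, 314 and 347 CPM. AUG_WT replicate 1 was again the lowest of the 16, and the groups overlapped. The log2 fold changes were 0.06 (SE 0.13, 95% interval -0.20 to 0.33) in AUG, -0.00 (SE 0.11, 95% interval -0.23 to 0.23) without that library and -0.07 (SE 0.13, 95% interval -0.34 to 0.20) in del7. In all 3, changes beyond 1.5-fold lie outside the interval.

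The other 8 receptors had AUG values between -0.07 (Bnip3l) and 0.18 (Pink1) and del7 values between -0.16 (Optn) and 0.12 (Fundc1). Without AUG_WT replicate 1 the AUG values ran from -0.20 (Calcoco1) to 0.20 (Fundc1), and Pink1 was at -0.04. Of all 9 receptors 1 was then above 0 (52.5% of all genes were), and 6 were with all libraries (43.8%). None had an unadjusted p under 0.05 in either line, with or without AUG_WT replicate 1. Pink1 was at 62.8 CPM in that library against 124 to 185 in the other 15. Fundc1 went the other way, at 14.5 CPM against 7.82 to 10.6. Without it, Nbr1 was at 311, 293 and 279.8 CPM in AUG_WT and at 270.2, 262, 268 and 272 CPM in AUG. Those groups did not overlap, and the log2 fold change was -0.12 (SE 0.10, 95% interval -0.33 to 0.09), or 0.03 with all libraries. Optn spread from 75.6 to 117 CPM within AUG, and its 95% interval (log2) was -0.42 to 0.50 in AUG and -0.62 to 0.30 in del7. Bnip3 and Bnip3l have near-identical copies elsewhere, and their levels are uncertain.

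**Figure D3:**
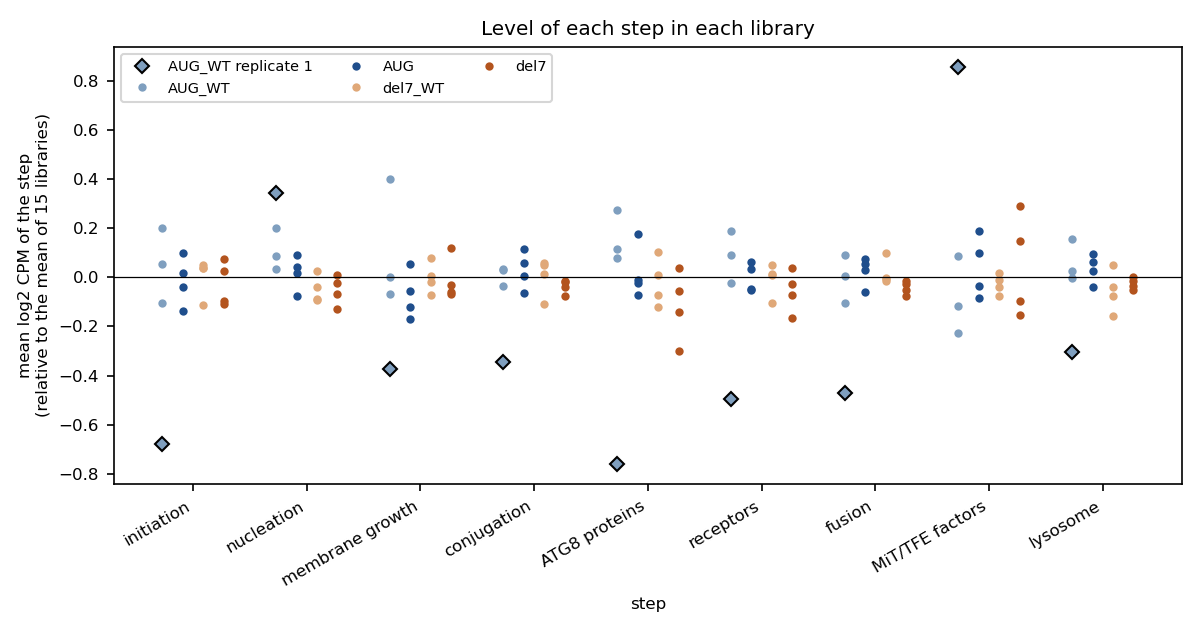
Mean log2 CPM of the members of each step (x axis) in each library, relative to the mean of the 15 libraries other than AUG_WT replicate 1 (y axis); points are single libraries coloured by group, and the diamond is AUG_WT replicate 1. The diamond lies at -0.76 for ATG8 proteins and at 0.86 for the MiT/TFE factors, outside the points of all other libraries in 9 of 9 steps.

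Fusion with the lysosome uses the small GTPase RAB7 and the SNARE proteins syntaxin 17 and VAMP8. Rab7 (ENSMUSG00000079477.10) had the highest level per kb of the 3 and was at 114, 117, 122 and 123 CPM in del7_WT and 113, 108, 109 and 105 CPM in del7. All del7 libraries were below all del7_WT libraries, by a small step. This held for 2 of the 55 genes in del7, Rab7 and Mcoln1, or 3.64%, and for 4.01% of all tested genes (1.61% lower). The log2 fold change was -0.13 (SE 0.08, unadjusted p = 0.144, adjusted p = 1), with an interval of -0.31 to 0.05. In AUG_WT it was at 103, 117, 123 and 119.7 CPM and in AUG at 114, 129, 113 and 116 CPM, overlapping, with a fold change of 0.02 (SE 0.08, 95% interval -0.15 to 0.20), and -0.01 without AUG_WT replicate 1. A processed pseudogene, Rab7-ps1, shares 622 bases with it at few mismatches.

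Vamp8 (ENSMUSG00000050732.10) was at 44.0, 50.4, 63.0 and 73.0 CPM in AUG_WT and 62.6, 67.2, 65.5 and 68.6 CPM in AUG. The AUG libraries were close together inside the wide range of AUG_WT. It was at 62.1, 65.7, 67.2 and 64.2 CPM in del7_WT and 62.7, 57.3, 70.7 and 60.5 CPM in del7, also overlapping. The fold changes were 0.20 (SE 0.13, 95% interval -0.08 to 0.47) in AUG, 0.10 without AUG_WT replicate 1 and -0.05 (SE 0.13, 95% interval -0.32 to 0.23) in del7. Stx17 had values of 0.16 and -0.01, and 0.03 in AUG without that library.

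TFEB, TFE3 and MITF are related transcription factors that bind E-boxes, among them the CLEAR motif of lysosomal and autophagy genes. Tfeb (ENSMUSG00000023990.19) was at 25, 9.39, 8.64 and 9.50 CPM in AUG_WT and 7.73, 8.52, 11.8 and 9.66 CPM in AUG. Replicate 1 of AUG_WT was 2.81 times the median of the other 15 libraries, and the other AUG_WT libraries lay within the range of AUG. Tfeb had a log2 fold change of -0.49 (SE 0.30, 95% interval -1.13 to 0.16) with it and 0.06 (SE 0.19, 95% interval -0.34 to 0.45) without it. In del7_WT it was at 9.46, 8.92, 8.44 and 7.87 CPM and in del7 at 11.5, 7.18, 12.4 and 7.96 CPM. The del7 libraries fell on either side of del7_WT, replicates 1 and 3 above all of them and replicate 2 below, with a fold change of 0.17 (SE 0.31, 95% interval -0.48 to 0.82).

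Tfe3 (ENSMUSG00000000134.18) had the highest level per kb of the family. It was at 34.8, 27.9, 25.9 and 23.1 CPM in AUG_WT, 29.2, 25.8, 26.8 and 22.7 CPM in AUG, 26.5, 19.6, 31.5 and 26.3 CPM in del7_WT and 30.2, 25.8, 28.9 and 25.3 CPM in del7. The groups overlapped, with fold changes of -0.10 (SE 0.15, 95% interval -0.41 to 0.22) in AUG, 0.05 without AUG_WT replicate 1 and 0.09 (SE 0.15, 95% interval -0.23 to 0.40) in del7. Mitf (ENSMUSG00000035158.16), the lowest of the 55 per kb, was at 11.2, 7.30, 5.57 and 4.47 CPM in AUG_WT and 8.71, 6.73, 7.52 and 6.07 CPM in AUG. AUG_WT replicate 1 was the highest and replicate 4 the lowest of all 16 libraries. Its fold change was 0.02 (SE 0.24, 95% interval -0.49 to 0.53) with replicate 1 and 0.35 (SE 0.19, 95% interval -0.06 to 0.76) without it. In del7_WT it was at 6.58, 7.80, 5.84 and 7.06 CPM and in del7 at 8.53, 6.22, 6.05 and 6.47 CPM, with a fold change of -0.00 (SE 0.24, 95% interval -0.51 to 0.51).

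Promoters were searched for the letters these factors are known to bind, in windows from 250 bases before to 50 after the annotated start (RefSeq, GRCm38.p6), which 47 of the 55 genes had. The palindrome TCACGTGA, the core of the CLEAR motif, stood in the windows of 5 of 47 genes, or 10.6%, and in those of 1.12% of 27025 genes of the table. The shorter E-box CACGTG, which lies inside it, stood in 12 of 47, or 25.5%, against 8.09%. Both read the same on either strand. By step, TCACGTGA was found in 4 of the 7 lysosome genes with a window and in 1 of 8 of conjugation, and CACGTG in 6 of 7 and 3 of 8. CACGTG also stood in 2 of 5 genes of nucleation and in 1 of 8 receptors, and the remaining steps held neither. A match describes letters only, and no binding was measured. As CLEAR is a motif of lysosomal and autophagy genes, a higher share in this list is no result of these data. The 27025 genes were also not limited to those tested in liver. The 5 stretches of 30 bases follow because they show the same core beside genes of the lysosome and, in Atg3, of conjugation, with the motif in capitals, 5′ to 3′ on the strand of the gene:
Mcoln1, chr8:3500462-3500491, + strand: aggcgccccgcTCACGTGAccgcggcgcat
Ctsd, chr7:142387908-142387937, - strand: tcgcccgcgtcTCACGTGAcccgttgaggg
Atp6v1a, chr16:44139373-44139402, - strand: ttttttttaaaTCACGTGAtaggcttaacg
Atp6v0d1, chr8:105566050-105566079, - strand: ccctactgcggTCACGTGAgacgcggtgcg
Atg3, chr16:45158746-45158775, + strand: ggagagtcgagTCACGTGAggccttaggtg
The window of Lamp1 held 4 E-boxes without the outer letters of the palindrome on both sides, in a stretch that ends just before the start, and they are shown in capitals.
Lamp1, chr8:13159090-13159155, + strand: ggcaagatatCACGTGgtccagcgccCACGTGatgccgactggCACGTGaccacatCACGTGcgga

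Genes with this core in their window had values on both sides of 0. In AUG against AUG_WT their values were 0.03 for Mcoln1, -0.14 for Ctsd, 0.11 for Atp6v1a, 0.04 for Atp6v0d1 and 0.09 for Atg3. Without AUG_WT replicate 1 they were -0.07, -0.09, 0.11, -0.05 and -0.06, and in del7 they were -0.22, 0.17, 0.04, -0.04 and -0.10 in the same order.

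Lysosome genes encode membrane proteins (LAMP1, LAMP2), proteases (cathepsins B, D and L), the calcium channel mucolipin 1 and subunits of the proton pump. Mcoln1 (ENSMUSG00000004567.17) had the smallest unadjusted p of the 55 in del7. It was at 35.2, 34.2, 37.3 and 34.1 CPM in del7_WT and 26.2, 27.2, 33.8 and 33.6 CPM in del7. Replicates 1 and 2 of del7 were low, and replicates 3 and 4 just under the lowest del7_WT library, so the groups did not overlap. The log2 fold change was -0.22 (SE 0.13, unadjusted p = 0.0974, adjusted p = 1), and -0.23 (SE 0.09, unadjusted p = 0.0246, adjusted p = 0.88) in the fit without AUG_WT replicate 1. In AUG_WT it was at 24.3, 35.6, 34.7 and 34.1 CPM and in AUG at 30.8, 31.2, 33.2 and 35.8 CPM. Only AUG_WT replicate 1 was low there, and the fold change was 0.03 (SE 0.12, 95% interval -0.24 to 0.30) with it and -0.07 without it.

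The 3 cathepsins had log2 fold changes above 0 in del7, and none passed. Ctsl (ENSMUSG00000021477.10) was at 409.6, 483, 416 and 455 CPM in del7_WT and 554, 658, 453 and 450.4 CPM in del7. Replicates 1 and 2 of del7 were high and the other two lay within del7_WT, for a fold change of 0.26 (SE 0.20, 95% interval -0.17 to 0.70). Ctsd (ENSMUSG00000007891.17) was at 108, 122, 121 and 158 CPM in del7_WT and 141, 167, 132 and 132 CPM in del7. One del7_WT library, replicate 4, lay among the del7 libraries, and the fold change was 0.17 (SE 0.13, 95% interval -0.12 to 0.45). Ctsb (ENSMUSG00000021939.9) was at 529, 532, 541 and 657 CPM in del7_WT and 629, 638, 659 and 596 CPM in del7. Here too del7_WT replicate 4 was apart, with a fold change of 0.16 (SE 0.13, 95% interval -0.11 to 0.43). Without del7_WT replicate 4, the libraries of del7 and del7_WT did not overlap for Ctsb and Ctsd, nor for Nbr1, and the count of such genes went from 2 to 5 of 55 (6.80% of all genes without that library). Markers of Kupffer cells and macrophages, cells rich in lysosomes, also lay above 0: 12 of 12 had del7 values above 0, with a median of 0.76, and their sum was 509 to 804 CPM in del7 and 315 to 500 CPM in del7_WT, without overlap. Erythroid markers had 6 of 6 values above 0 with a median of 0.92, and their sums overlapped. Neutrophil markers had 3 of 3 values above 0 with a median of 1.49, and their sums did not overlap, at 6.53 to 13.9 CPM in del7 and 2.60 to 5.10 CPM in del7_WT. Hepatocyte markers had 0 of 7 values above 0. The part of these cells in the cathepsin values was not tested.

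In the AUG line, Ctsl was at 298, 345, 621 and 478 CPM in AUG_WT and 429.7, 436, 456 and 551 CPM in AUG, Ctsd at 171, 169.6, 164 and 136 and 134, 168, 133 and 146 CPM, and Ctsb at 585, 555, 752 and 649 and 589.8, 638, 703 and 669 CPM. All 3 overlapped between the groups. Their AUG fold changes were 0.11 (SE 0.20, 95% interval -0.33 to 0.54), -0.14 (SE 0.13, 95% interval -0.43 to 0.14) and 0.03 (SE 0.13, 95% interval -0.24 to 0.31), and -0.02, -0.09 and 0.01 without AUG_WT replicate 1. Ctsb, Ctsd and Ctsl each share an exon stretch with an overlapping annotated gene.

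Lamp1 (ENSMUSG00000031447.8), the highest gene of the list per kb, was at 392, 488, 426 and 438 CPM in AUG_WT and 429, 448, 439.5 and 451 CPM in AUG. It was at 398, 401, 388 and 405 CPM in del7_WT and 388, 407, 389.8 and 367 CPM in del7. The groups of each line overlapped, and the libraries of a group other than AUG_WT differed by little. Its fold changes were 0.02 (SE 0.10, 95% interval -0.19 to 0.23) in AUG, -0.01 without AUG_WT replicate 1 and -0.04 (SE 0.10, 95% interval -0.25 to 0.17) in del7. Lamp2 (ENSMUSG00000016534.16) was at 317, 549, 658 and 629 CPM in AUG_WT and 599, 617, 606 and 653 CPM in AUG, with AUG_WT replicate 1 far below all others. The del7_WT libraries were at 594, 630.0, 590.4 and 659 CPM and the del7 libraries at 574, 553, 594 and 625 CPM. The fold changes were 0.20 (SE 0.18, 95% interval -0.17 to 0.58) in AUG, 0.03 (SE 0.10, 95% interval -0.17 to 0.24) without replicate 1 and -0.08 (SE 0.18, 95% interval -0.45 to 0.30) in del7. Both proton pump genes on the list had values near 0, 0.11 and 0.04 for Atp6v1a and 0.04 and -0.04 for Atp6v0d1 in AUG and del7, and 0.11 and -0.05 in AUG without that library.

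**Figure D4:**
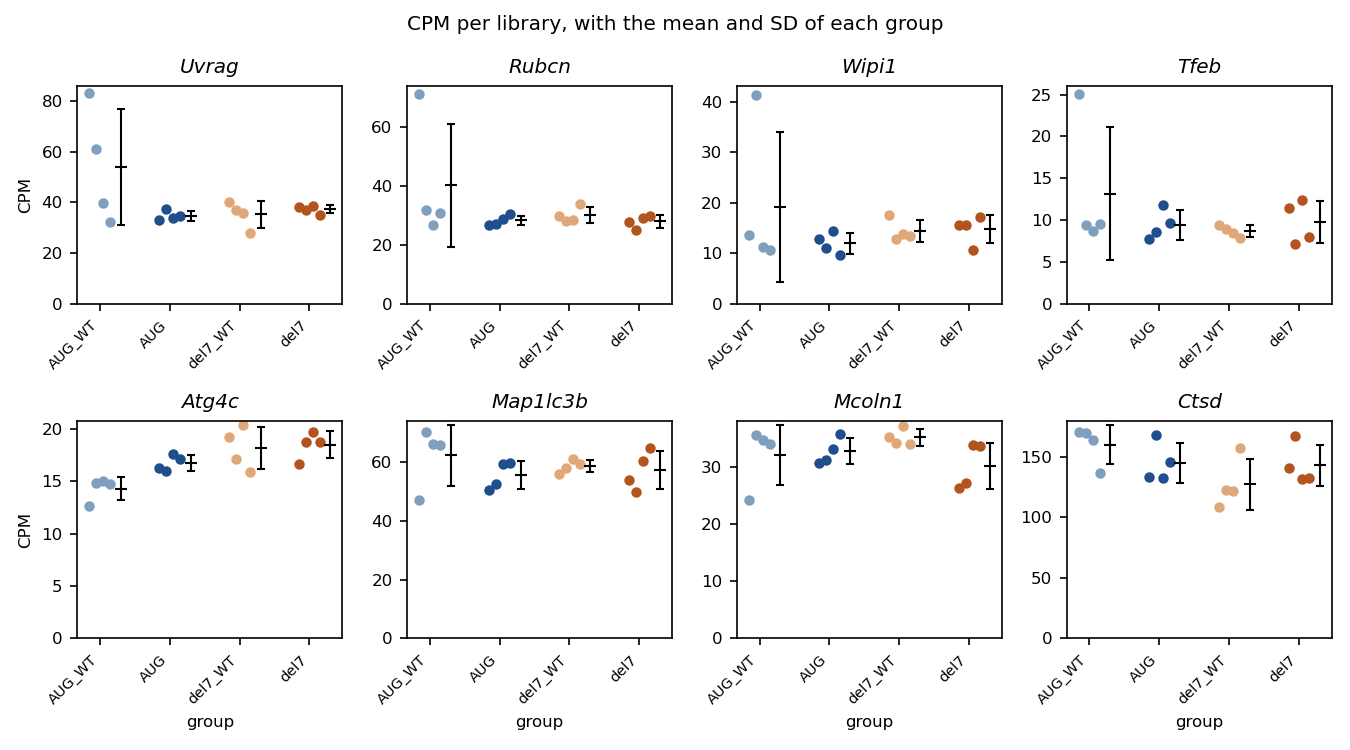
CPM (y axis) of 8 genes in each library (points) by group, with the mean and SD of each group of 4 (bars to the right). Uvrag, Rubcn and Tfeb show AUG_WT replicate 1 above the rest and Wipi1 shows AUG_WT replicate 2 at 41.2, while Atg4c (AUG against AUG_WT) and Mcoln1 (del7 against del7_WT) show groups without overlap.

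Whether the 2 mutations differed in effect was tested as the AUG effect minus the del7 effect. Of the 55 genes 0 passed (0.00693% of all genes), 1 had an unadjusted p under 0.05, Uvrag (1.82% against 5.21%), and DESeq2 and limma voom gave 1 and 0 such genes and called 0. The median difference was 0.06 (all genes -0.04). Without AUG_WT replicate 1, 0 passed (0.0137%), and the 1 gene with an unadjusted p under 0.05 was Atg4a (3.02% of all genes).

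The wild types of the lines were also set against each other, as a measure of what differs between the lines apart from the mutations. In AUG_WT against del7_WT 0 of 55 passed edgeR's test (0.0347% of all genes), and 0 in DESeq2 and limma voom. Each of the 3 tools gave 4 genes with an unadjusted p under 0.05, or 7.27% in edgeR against 11.8% of all genes (9.23% higher and 2.57% lower). In edgeR these were Uvrag (0.62, SE 0.22, 95% interval 0.15 to 1.08), Ambra1 (0.21) and Ctsd (0.33) with higher and Atg4c (-0.34) with lower values in AUG_WT. Without AUG_WT replicate 1 these values were 0.31 (unadjusted p = 0.079), 0.21, 0.28 and -0.31. All 7 nucleation genes had values above 0, as did 55.4% of all genes, and 5 of 7 without that library. In that fit 0 passed (0.0686%), and the 4 genes with an unadjusted p under 0.05 were Atg14 (0.26), Map1lc3a (0.51), Pink1 (0.24) and Atg4c (-0.31), against 7.47% of all genes. The libraries did not overlap for Atg4c with all libraries (3.53% of genes), and for 6 genes without that one: Atg14, Atg9a, Map1lc3b, Pink1 and Lamp1 higher and Atg4c lower in AUG_WT (7.76%). The erythroid markers were at 128 to 403 CPM in del7_WT, below AUG_WT replicates 2 to 4. Cholangiocyte markers went the other way, at 33.3 to 75.7 CPM in del7_WT and 23.5 to 24.3 CPM in AUG_WT replicates 2 to 4. In the fit without AUG_WT replicate 1, 0 of 5 cholangiocyte values were above 0, with a median of -0.76. Kupffer cell and macrophage markers had 11 of 12 above 0, with a median of 0.24 and sums that overlapped. The part of these markers in the values of the genes was not tested. The line and any handling that went with it cannot be told apart. This comparison and that of AUG share the AUG_WT libraries. Atg4c, for example, read 0.23 in the one and -0.34 in the other from the same 4 low AUG_WT values.

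The rest of the pathway was followed in 6 further lists of 138 genes, of which 134 were matched and 132 tested. None of the 132 passed edgeR's test in either mutant, with or without AUG_WT replicate 1. With all libraries 9 of the 132 had an unadjusted p under 0.05 in AUG and 1 in del7, where 8.81% and 1.92% of all genes did. DESeq2 had 8 and 1, limma voom had 9 and 1, and neither tool called any. The edgeR counts without AUG_WT replicate 1 were 4 in AUG and 5 in del7, against 5.92% and 5.34% of all genes. In parentheses, each AUG value is followed by the value without AUG_WT replicate 1. Of 16 further core genes, 0 with higher and 2 with lower values in AUG had an unadjusted p under 0.05, Sh3glb1 (-0.29, SE 0.12, -0.31 without), which bends membranes with UVRAG and Beclin 1, and Pik3c2a (-0.29, SE 0.13, -0.21 without), a class II lipid kinase. In del7 Pik3c2a was at 0.31 (SE 0.13, unadjusted p = 0.0318, adjusted p = 1) and Zfyve1, which marks the sites where autophagosomes form, at -0.17 (SE 0.13). Of 17 further genes of selective autophagy, none reached an unadjusted p of 0.05 with all libraries, and without AUG_WT replicate 1 none did in AUG and 1 did in del7. The glycogen receptor Stbd1 (0.41, SE 0.24, 0.27 without) and the ER receptor Sec62 (0.19, SE 0.12, 0.07 without) came nearest in AUG, and Sec62 (-0.18, SE 0.12) and the mitochondrial deubiquitinase Usp30 (-0.15, SE 0.12) in del7.

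Of 18 genes of fusion and tethering, Vps39 (-0.28, SE 0.12, -0.17 without), a subunit of the HOPS tether, had an unadjusted p under 0.05 in AUG, and Plekhm1 (-0.24, SE 0.12, -0.06 without), an adaptor of RAB7, came next. In del7 none had, and Vps39 (-0.18, SE 0.12) and Vps41 (0.13, SE 0.10), another subunit of HOPS, had the smallest p. Of 43 lysosomal enzymes and cofactors, 12 had values above 0 in AUG and 27 in del7, where 43.8% and 50.1% of all genes did. In AUG 2 had an unadjusted p under 0.05, both lower, among them the glycosidase Gusb (-0.47, SE 0.18, -0.23 without). In the fit lacking AUG_WT replicate 1, 22 of 43 were above 0 in AUG, where 52.5% of all genes were. In del7 the proteases Lgmn (0.53, SE 0.29) and Ctsk (0.73, SE 0.63) had unadjusted p-values of 0.0927 and 0.266.

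Of 23 genes of the lysosomal membrane, 10 had values above 0 in AUG and 9 in del7, where 43.8% and 50.1% of all genes did. Cd63, a tetraspanin, was at -1.09 (SE 0.43, -0.12 without) in AUG, and Mfsd8, a transporter of the membrane, at 0.28 (SE 0.13, 0.23 without). Tpcn1, a cation channel, and Clcn7, a chloride transporter, were at -0.38 (SE 0.23) and -0.23 (SE 0.12) in del7. Of 15 further subunits of the proton pump, 6 had values above 0 in AUG and 8 in del7, against the same shares of all genes. Atp6v0a1 (-0.26, SE 0.11, -0.28 without) and Atp6v0e (-0.33, SE 0.13, -0.17 without) had an unadjusted p under 0.05 in AUG, and Atp6ap2 (0.18, SE 0.13) and Atp6v0c (0.26, SE 0.22) had the smallest p in del7. The medians of the 6 lists lay between -0.09 and 0.06 in AUG and between -0.04 and 0.04 in del7, where all genes were at -0.04 and 0.00.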

How the data were processed

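RNA of 16 mouse liver samples was sequenced. Per the labels' protocols, each library began with 10 mg of frozen tissue and 550 ng of DNase-treated RNA, which was depleted of ribosomal RNA and prepared with a strand-keeping kit. The submitters' processing notes name cutadapt 2.10, STAR 2.7.9a and GRCm39, and no annotation release (not given in the sources used here). Raw counts of reads per gene are what the authors deposited. The series table equals the reverse-strand column of the tables deposited for each sample, and 0 of its columns were left unmapped. Lines for unmapped and unassigned reads in the sample tables stayed out.

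The test was edgeR's (version 4.0.16, R 4.3.3): filterByExpr with a minimum count of 10 kept 14421 genes, libraries were scaled by TMM, and glmQLFit and glmQLFTest were run, two-sided, on a group-means model of 16 libraries with 12 residual degrees of freedom. Each mutant was set against the wild type of its line, the effects of the mutants against each other, and AUG_WT against del7_WT, 4 comparisons in all. P-values were adjusted over all tested genes by Benjamini and Hochberg's method and called under 0.05. Standard errors come from the F statistic and intervals cover 95%. CPM (counts per 1000000) use the scaled library sizes, and log2 CPM has a prior count of 2. The procedure was also run on simulated counts. Their spread was taken without AUG_WT replicate 1, so they do not stand for the fits that keep that library. Library totals of 7714058 to 14629022 counts gave a median standard error of 0.15 (log2) for the 55 genes and 0.22 for all genes in both mutant comparisons.

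The members and all gene lists were chosen with earlier results of these data known. Symbols came from GENCODE M21 on GRCm38, which matched 52081 of 55357 identifiers, as did exon lengths and transcripts for blastn (near-identical from 100 bases at 98% identity). Promoter windows are from RefSeq on GRCm38.p6. No window was given for Rb1cc1, Becn1, Pik3c3, Atg12, Atg16l1, Map1lc3a, Bnip3l and Ctsb. Values in all libraries are printed for 24 genes. These were the 3 genes with the smallest p in each direction of AUG, of AUG without AUG_WT replicate 1 and of del7, the highest per kb of each step, and Sqstm1, Map1lc3b, Lamp2 and Tfeb. Of each further list, the 2 genes with the smallest p in each mutant are named, except 1 that is not reported here. Other single genes with values were chosen after their values were seen. Alternatives were RLE size factors, no filter on low counts, DESeq2 1.42.0, limma 3.58.1 voom, the unstranded column, the replicate number as a block, the 2 groups alone, all 8 wild types as control, and leaving out each library in turn.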

Additional observations from a re-analysis of the deposited data

Results flagged for a closer look

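Among 96 groups of 4 libraries, those of the 24 genes whose values are printed for every library, 9 held 1 library apart from the other 3: its gap to the nearest of them was over 0.829 of the whole range of the group. Chance gives about 1 in 20 of independent groups, which is no reference for these 9, since the groups share libraries and most of the genes were chosen by their p. In 5 of the 9 the library was AUG_WT replicate 1. Rubcn was at 71.2 CPM there (the other 3 at 26.7 to 31.9), Atg4a at 10.2 (5.46 to 5.83), Tfeb at 25 (8.64 to 9.50), Atg4c at 12.6 (14.8 to 15) and Mcoln1 at 24.3 (34.1 to 35.6). In AUG_WT replicate 2, Wipi1 was at 41.2 CPM (10.6 to 13.5). In AUG replicate 3, Ulk1 was at 113 CPM (69.5 to 76.2). In del7 replicate 1, Mitf was at 8.53 CPM (6.05 to 6.47). In del7_WT replicate 4, Ctsb was at 657 CPM (529 to 541).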

How the results depend on the processing

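No member passed the adjusted p of 0.05 in any of 24 alternatives for AUG, 24 for del7, 22 for the difference of effects and 23 for the wild types. The smallest adjusted p was 0.195 in AUG and 0.105 in the wild types (both Uvrag without AUG_WT replicate 4), 0.442 for the difference (the same) and 0.800 in del7 (Mcoln1, the 2 groups alone). With 1 library left out at a time, the median of the members ran from -0.02 to 0.07 in AUG, from -0.04 to -0.0042 in del7, from 0.03 to 0.13 for the difference and from -0.06 to 0.06 for the wild types. It was 0.04, -0.03, 0.06 and 0.01 with all libraries. The AUG median was below 0 without AUG_WT replicate 1, and the wild-type median was -0.02 with no filter on low counts. The number of genes whose groups did not overlap ran from 1 to 6 in AUG, from 2 to 5 in del7 and from 1 to 6 for the wild types, where 3.55 to 5.47%, 5.8 to 7.59% and 5.24 to 7.76% of all genes did not. It was 6 without AUG_WT replicate 1 in AUG and for the wild types, 6 for the wild types without del7_WT replicate 4, and 5 in del7 without del7_WT replicate 4. In AUG it was 2 when replicate 1 or 2 of AUG, or replicate 3 or 4 of AUG_WT, was left out. For the wild types it was 2 without AUG_WT replicate 2 or del7_WT replicate 3, and 3 without AUG_WT replicate 4 or del7_WT replicate 2. Mitf in AUG ran from -0.15 to 0.35, Atg4a from -0.011 to 0.35, Ulk1 from -0.48 to 0.0083 and Wipi1 from -0.88 to 0.027 over the libraries left out, and Ctsd in del7 was -0.0069 with all 8 wild types as control. The cause of these shifts was not tested. Same-numbered samples of mutant and wild type correlated at -0.16 to 0.35 in AUG and 0.09 to 0.28 in del7. In del7, replicates 1, 2 and 3 correlated best with the wild-type library of their own number, and in AUG only replicate 4 did. The main model did not take the numbers as pairs, and whether they mark anything shared was not tested. With the replicate number as a block, 0 members were called, and 2, 1, 1 and 3 had an unadjusted p under 0.05 in AUG, del7, the difference and the wild types. The share of all genes at that p is not given for this fit, so these counts lack a reference. At this depth and spread, 43 of 55 genes in AUG and 43 in del7 had a 95% interval within 1.5-fold (42.3% and 47.7% of all genes). With AUG_WT replicate 1 left out, these counts were 48 and 52 (51.1% and 56.6%).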
